A study of Saccharomyces cerevisiae with 4 samples.

Results

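The genes described here take sulphate into budding yeast and reduce it to sulphide. They were chosen by name through the platform annotation of the arrays as the permeases, the activating enzymes, the sulphite reductase subunits and the enzymes that make its cofactor, sirohaem. All 9 of these genes were found among the 5547 named genes, with 1 probe each, and all 9 had a value on each of the 4 arrays.

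Sulphate enters the cell through the permeases Sul1 and Sul2 and is activated in successive steps by Met3 and Met14. Met16 reduces the activated form to sulphite, and the sulphite reductase made of Met5 and Met10 reduces sulphite to sulphide, which feeds the synthesis of homocysteine, methionine and cysteine. The activator Met4 acts on this route through the DNA-binding factors Cbf1, Met31 and Met32 and the cofactor Met28, and the pathway is known to be turned down when methionine and cysteine are plentiful, as in a rich medium.

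Each sample was a 2-colour hybridisation of messenger RNA, and cultures of every strain were grown in YPD at 25 C and harvested at an optical density of 0.8. In 1 sample a Δsnf2 strain, which lacks the ATPase of the SWI/SNF chromatin remodeler, was set against its wild type BY4741. In another, a strain of background PSY3 with the SnAC domain of Snf2 deleted was set against the wild type PSY2, whose Snf2 carries an epitope tag (Snf2-2FLAG). Any other difference between PSY3 and PSY2 cannot be told apart from the domain deletion there. In the remaining samples BY4741 and Snf2-2FLAG were each hybridised against themselves. BY4741 is known as a laboratory strain that lacks MET17, the enzyme joining sulphide to O-acetylhomoserine, so both channels of the null array share that lesion. The sources used here do not say whether PSY2 and PSY3 carry it, nor whether a mutant came from more than 1 clone or culture.

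There was 1 array per group, so no value has a replicate error and no difference was tested. Values are the deposited log ratios, read as log2, after subtraction of each array's own median, so that above 0 means more transcript in the mutant, or in channel 1 of a self-hybridisation. Folds hold only if base 2 is right. The largest median subtracted was -0.39, from the SnAC deletion array, and those of the other arrays lay between -0.13 and 0.10. Between 5695 and 6061 probes per array had a value. SNF2 itself read -2.14 in the null and had no value on either PSY2-based array, which leaves the domain deletion unchecked at its own gene. The ratios give no level of a transcript, and more transcript in each cell cannot be told apart from more cells making it.

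In both mutants most of the route lay far above the rest of the array, while the permease gene SUL1 did not. In the null, 7 of the 9 genes were at least 2-fold higher, against 1.26% of the 6031 features on that array. In the SnAC deletion 6 of the 9 were, against 0.866% of 5890 features. None of the 9 was 2-fold lower in either mutant, where 1.59% and 1.19% of features were. None was 1.5-fold lower, where 3.27% and 2.56% were. At such shares a count of 0 among 9 genes is what the background gives. The median of the 9 genes was 1.95 in the null against 1.48 in the SnAC deletion, and that of all features was 0 within 0.001 on both arrays. At 1.5-fold the counts were 8 against 4.28% of features for the null, and 7 against 3.12% for the domain deletion. At 3-fold they were 6 against 0.448%, and 3 against 0.204%. On the array as deposited, whose displaced median lowers every value, 5 genes of the SnAC deletion were 2-fold higher and none lower, against 0.340% and 2.46% of features. With the wild-type array subtracted the counts stayed at 7 and 6, against 1.63% and 1.87% of features.

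The 6 genes past 2-fold in the SnAC deletion were also past it in the null, and 0.725% of the 5790 features measured on both arrays were 2-fold higher in both. Genes of this route made up 6 of the 20 highest features of the null and 5 of those of the SnAC deletion.

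**Figure D1:**
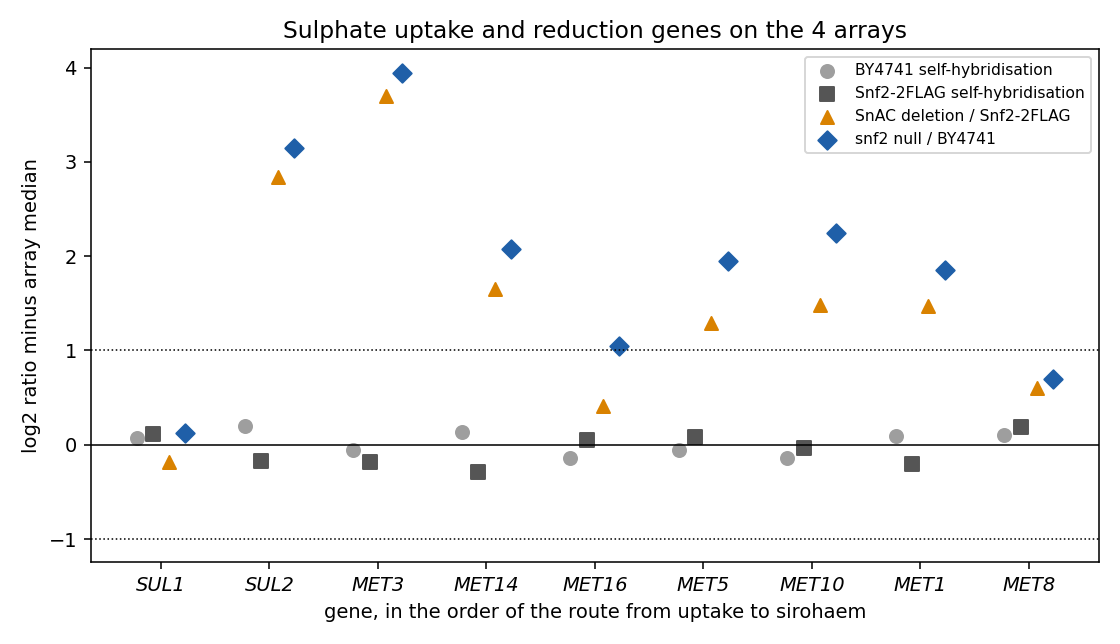
Log2 ratio minus the array median (vertical axis) for the 9 genes in route order (horizontal axis), with 1 marker per array and dotted lines at 2-fold. The wild-type markers lie between -0.29 and 0.20, while MET3 and SUL2 stand highest in both mutants and SUL1 stays with the wild-type markers.

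On the wild-type arrays the 9 genes stayed close to 0. Their values ran from -0.14 to 0.20 on the BY4741 array, with a median of 0.07, and from -0.29 to 0.19 on the Snf2-2FLAG array, with a median of -0.04. Every one of the 9 lay inside the central 95% of each of these arrays. In the null, 8 of the 9 genes lay outside the central 99% of the BY4741 array, which ran from -0.49 to 0.43. In the SnAC deletion 6 of the 9 lay outside the wider central 99% of the Snf2-2FLAG array, from -0.74 to 0.74. Over all features the mutant arrays were themselves wider, with a central 99% from -2.11 to 1.51 in the null and from -1.79 to 1.20 in the SnAC deletion. Features in general thus also lay outside the wild-type ranges more often than on the wild-type arrays, at a share that was not computed.

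The permease genes parted sharply. SUL2 (YLR092W) read 0.20 in the BY4741 self-hybridisation, -0.17 in that of Snf2-2FLAG, 2.84 with SnAC deleted and 3.14 with SNF2 deleted. It was 7.16-fold higher with SnAC deleted and 8.83-fold higher with SNF2 deleted, ranking 4 from the top on both mutant arrays. SUL1 (YBR294W), which encodes the other sulphate permease, read 0.07, 0.11, -0.18 and 0.12 in the same order of arrays. Its mutant values were thus no farther from 0 than ordinary features of the wild-type arrays, and opposite in sign to each other. The gap between the permease genes was 3.02 in each mutant, an 8.11-fold difference in ratio in the null and an 8.12-fold one in the SnAC deletion, against gaps of 0.13 and 0.28 on the BY4741 and Snf2-2FLAG arrays. As these are ratios to wild type, the gap says nothing of which permease transcript was more abundant.

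The activating enzymes gave the highest and some of the intermediate values. MET3 (YJR010W), the ATP sulphurylase that makes adenylyl sulphate, read -0.05 in the BY4741 self-hybridisation, -0.19 in that of Snf2-2FLAG, 3.70 with SnAC deleted and 3.95 with SNF2 deleted. It ranked 2 from the top of both mutant arrays, at 13.0-fold and 15.4-fold. MET14 (YKL001C), the kinase that phosphorylates adenylyl sulphate, read 0.14, -0.29, 1.65 and 2.07 in the same order. That is 3.15-fold higher with SnAC deleted and 4.21-fold higher with SNF2 deleted. MET14 was the lowest of the 9 genes on the Snf2-2FLAG array and among the 4 highest in either mutant.

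MET16 (YPR167C), the reductase that turns the activated sulphate into sulphite, was the member on which the mutants fell on different sides of the threshold. It read -0.14 in the BY4741 self-hybridisation, 0.05 in that of Snf2-2FLAG, 0.41 with SnAC deleted and 1.05 with SNF2 deleted. In the null this is 2.07-fold, just past the threshold and rank 64 of 6031, and in the SnAC deletion 1.33-fold, rank 377 of 5890. Within the activation and first reduction steps, MET3 and MET16 were 2.89 apart in the null and 3.29 apart in the SnAC deletion, with MET14 between them on both arrays.

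The sulphite reductase subunit genes stood close together on each array. MET5 (YJR137C), for the beta subunit, read -0.06 in the BY4741 self-hybridisation, 0.09 in that of Snf2-2FLAG, 1.29 with SnAC deleted and 1.95 with SNF2 deleted. MET10 (YFR030W), for the alpha subunit, read -0.14, -0.04, 1.49 and 2.25. The subunit genes differed by 0.31 in the null and by 0.19 in the SnAC deletion. Genes with more than 1 probe differed between probes by a median of 0.09 on the null array and 0.14 on the SnAC deletion array, and at most by 0.40 and 0.53, so the gaps between the subunit genes lay within the range seen between probes of the same gene.

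The sirohaem genes differed more. MET1 (YKR069W), the methyltransferase that starts sirohaem synthesis from uroporphyrinogen III, read 0.09 in the BY4741 self-hybridisation, -0.20 in that of Snf2-2FLAG, 1.48 with SnAC deleted and 1.85 with SNF2 deleted. MET8 (YBR213W), the enzyme that completes sirohaem by oxidation and insertion of iron, read 0.11, 0.19, 0.60 and 0.70. MET1 was 2.78-fold higher with SnAC deleted and 3.61-fold higher with SNF2 deleted, whereas MET8 was 1.52-fold and 1.62-fold higher and stayed within 2-fold in both. The gap between them was 0.87 with SnAC deleted and 1.15 with SNF2 deleted. Measured against the wild-type ranges given above, MET8 was outside for the null and inside for the domain deletion.

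In order of size the null ran MET3, SUL2, MET10, MET14, MET5, MET1, MET16, MET8 and SUL1, and the SnAC deletion ran MET3, SUL2, MET14, MET10, MET1, MET5, MET8, MET16 and SUL1. The steps from MET3 to SUL2 were 0.80 and 0.86, and the next steps down from SUL2 were 0.89 and 1.19. With no replicates, the remaining gaps were set against the SD that a difference of 2 features would have at the spread of each wild-type array, 0.23 for BY4741 and 0.35 for Snf2-2FLAG. That spread may hold no variation between cultures, so a gap above it is not shown to be real. Each adjacent pair from MET10 through MET14 and MET5 to MET1 lay below it in the null. In the SnAC deletion the same held for each adjacent pair from MET14 through MET10 and MET1 to MET5, and for MET8 and MET16.

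The values of the mutants were then set side by side for each gene. All 9 genes read higher in the null than in the SnAC deletion, where 47.0% of 5790 features did. The difference had a median of 0.38 over the 9 genes and of -0.01 over all features. High features in general showed such a difference: of the 42 that were 2-fold higher in both mutants, 6 of them genes of this route, 34 read higher in the null, with a median difference of 0.34. The sign of the difference was therefore shared with other features at the top of these arrays. The mutants had different wild types and no array in common.

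The size of the difference varied along the route. It was 0.77 for MET10, 0.65 for MET5 and 0.64 for MET16, above 99.7%, 99.4% and 99.4% of all features. These genes encode the enzymes that carry out the reductions. Most of all features were not high in either mutant, so these percentages do not compare like with like. Among the 42 features 2-fold higher in both mutants the difference ran from -0.235 to 0.93. It reached 1.97 among the 74 that were 2-fold higher in the null and measured on both arrays. For MET14 the difference was 0.42, for MET1 0.38, for SUL1 0.31, for SUL2 0.30, for MET3 0.25 and for MET8 0.10. The self-hybridisation of its own wild type was then subtracted from each mutant, BY4741 for the null and Snf2-2FLAG for the SnAC deletion. MET10, MET16 and MET5 kept differences of 0.86, 0.82 and 0.79. After that subtraction SUL2 and MET14 turned to -0.07 and -0.01, MET1 dropped to 0.09 and MET3 to 0.12, so 7 of the 9 genes remained higher in the null, against 49.8% of 5134 features. That MET16, MET5 and MET10 stand together here was seen after their values were known, and with 1 array per mutant it was not tested.

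**Figure D2:**
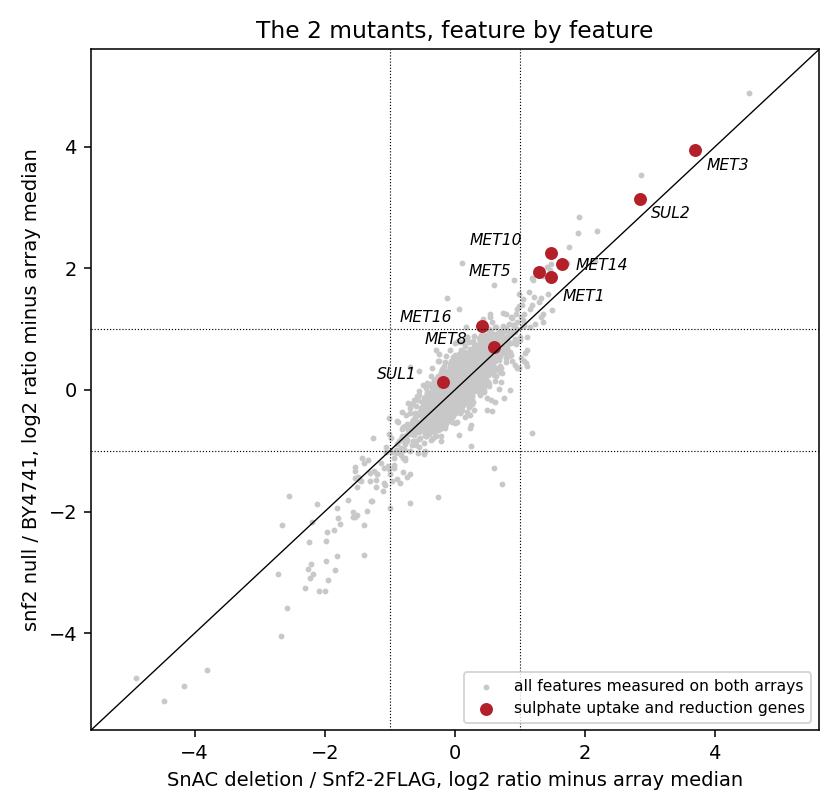
Log2 ratio minus the array median in the SnAC deletion (horizontal axis) and the null (vertical axis), with 1 grey point per feature, the 9 genes in red, the line of equality and dotted lines at 2-fold. The 9 genes lie above the line of equality, with MET3 and SUL2 near the upper end and SUL1 inside the main cloud.

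**Figure D3:**
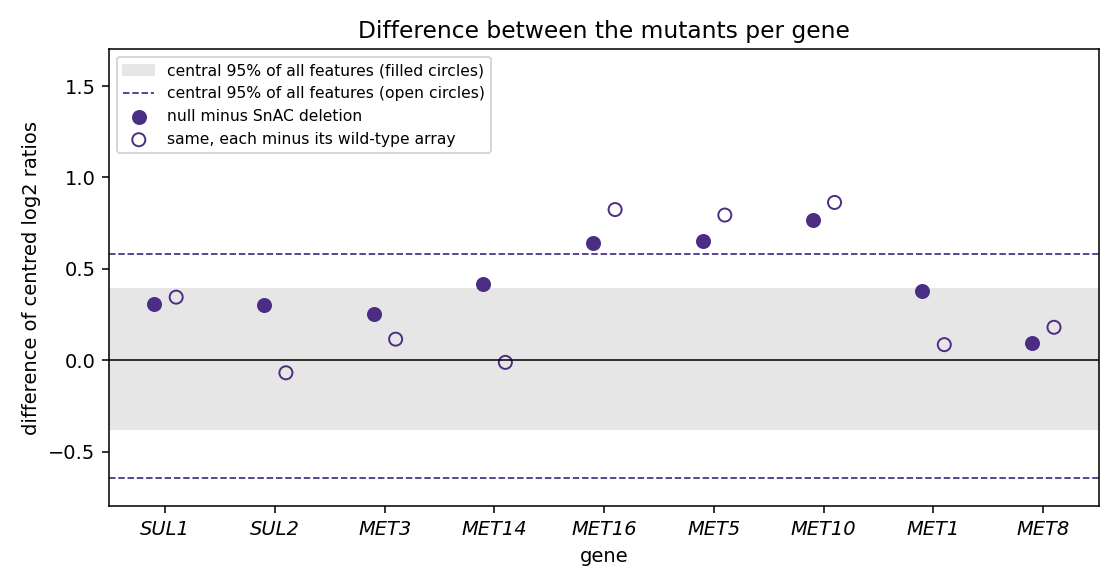
Null minus SnAC deletion in centred log2 ratios (vertical axis) for each gene (horizontal axis), as measured (filled) and after subtraction of the wild-type arrays (open). The central 95% of all features ran from -0.37 to 0.39 as measured (grey band) and from -0.65 to 0.58 after subtraction (dashed lines). MET16, MET5 and MET10 lie above the range that belongs to each circle, MET14 just above as measured only, and the open circles of SUL2 and MET14 lie just below 0.

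The genes on either side of each member on the chromosome were compared with it. Of 18 such protein-coding neighbours, 14 had a value in the null, where 0 were 2-fold higher and 0 lower, against 1.26% and 1.59% of all features. Their values ran from -0.32 to 0.32 with a median of 0.07. In the SnAC deletion 17 had a value, with none 2-fold higher or lower, against 0.866% and 1.19% of all features. Those values ran from -0.26 to 0.34 with a median of 0.11. Beside SUL2, the mitochondrial gene GEP5 read 0.23 and the vacuolar fusion gene NYV1 0.24 in the null. Beside MET3, the signal peptidase subunit gene SPC1 read -0.24 in the null, and TDH2, a glyceraldehyde-3-phosphate dehydrogenase gene, had no value there and read 0.27 in the SnAC deletion. No measured neighbour of a member past 2-fold was itself past it. At these shares a count of 0 among so few genes is what the background gives.

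**Figure D4:**
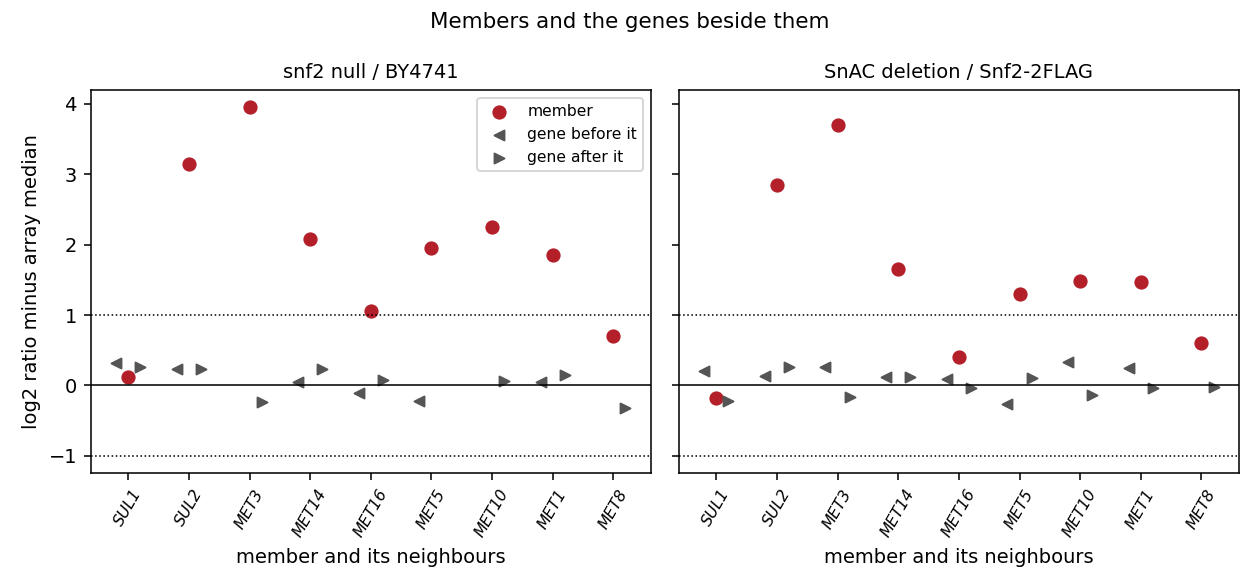
Log2 ratio minus the array median (vertical axis) for each member (red circle) and the genes before and after it in gene order (grey triangles) in the null (left) and the SnAC deletion (right). The neighbours lie between -0.32 and 0.34, and dotted lines mark 2-fold.

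Other genes of sulphur metabolism, with genes for haem, thioredoxin and the pentose phosphate route, were taken from 8 lists with 60 genes. Of these, 8 of 57 measured in the null were at least 2-fold higher, where 1.26% of all features were, and 7 of 59 measured in the SnAC deletion, where 0.866% were. None was 2-fold lower, and with 1.59% and 1.19% of all features lower, few or none would be called among so many genes at the background share. All 7 of the SnAC deletion were among the 8 of the null. On the list of homocysteine, methionine and S-adenosylmethionine synthesis, 3 of 14 genes were 2-fold higher in each mutant, beside the same 1.26% and 0.866% of all features. They were the methionine synthase gene MET6 at 2.58 in the null against 1.89 in the SnAC deletion, the homoserine acetyltransferase gene MET2 at 2.09 and 1.72, and the methylenetetrahydrofolate reductase gene MET13 at 1.84 and 1.19. The list as a whole had a median of 0.21 in the null against 0.17 in the SnAC deletion, far below that of sulphate uptake and reduction. SAM4, which recycles S-adenosylmethionine by methylating homocysteine, read -0.62 and -0.57. MET17 read 0.45 and 0.53, but where a strain lacks the gene its probe has no transcript to measure.

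Among the 4 genes of transsulphuration, STR3, the cystathionine beta-lyase on the way from cysteine to homocysteine, read 1.98 in the null against 1.46 in the SnAC deletion. The others stayed within 2-fold, as did most of all features, of which 1.26% (null) and 0.866% (SnAC deletion) were 2-fold higher. CYS3, which acts toward cysteine, read 0.64 and 0.65, CYS4 read -0.51 and -0.45, and STR2 read 0.22 and 0.003. The 6 permeases of sulphur amino acids included the methionine permease gene MUP1 at 1.20 and 1.32 and the S-methylmethionine permease gene MMP1 at 1.05 and 0.74. SAM3, which takes up S-adenosylmethionine, read -0.56 and -0.23, and YCT1, a cysteine transporter, read 0.50 in the null with no value in the SnAC deletion.

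Most regulators of the route were within 2-fold, as were most of all features, so this does not set them apart. Only 1.26% (null) and 0.866% (SnAC deletion) of features were 2-fold higher, and 1.59% and 1.19% were 2-fold lower. MET28, the cofactor of Met4, was the exception among 6, at 1.51 in the null against 1.33 in the SnAC deletion, and it had no value on the BY4741 array. MET30, whose product is the ubiquitin ligase subunit that restrains Met4, read 0.96 and 0.68. MET4 itself read 0.45 and -0.03. CBF1, the factor that binds the promoters of these genes, lay on the low side at -0.70 and -0.61, and read -0.13 on the Snf2-2FLAG array with no value on the BY4741 array. The list median was 0.42 in the null against 0.09 in the SnAC deletion.

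The genes that supply the route with cofactors or share its precursors had medians near those of their arrays. Their lists are short, and at shares of 1.26% and 0.866% of all features a count of 0 past 2-fold is what the background gives. Of the genes for haem, which is made from the same precursor as sirohaem, 0 of 7 measured in the null and 0 of 8 in the SnAC deletion were 2-fold higher, with medians of -0.08 and 0.01. HEM12, the decarboxylase that draws uroporphyrinogen III toward haem, read 0.44 and 0.54, HEM13 read -0.35 and 0.01, HEM2 read -0.22 and -0.08, and HEM15 read -0.20 in both. Thioredoxin, the electron donor of Met16, had 0 of 5 and 0 of 6 measured genes past 2-fold. AHP1, a peroxiredoxin on that list, read 0.77 and 0.83. The thioredoxin reductase gene TRR1 read -0.28 and -0.19, TRX2 read -0.21 and -0.20, and TRX3 read -0.20 in the SnAC deletion with no value in the null.

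The pentose phosphate route makes NADPH, the electron donor of sulphite reductase. Its list of 10 genes had medians of -0.18 in the null against -0.02 in the SnAC deletion, with SOL4, a phosphogluconolactonase gene, past 2-fold at 1.25 and 1.36. ZWF1, the glucose-6-phosphate dehydrogenase gene, read 0.68 and 0.64. ZWF1 and SOL4 also lay below the median on both wild-type arrays, ZWF1 at -0.35 and -0.44 and SOL4 at -0.20 and -0.41. SOL3 read -0.61 and -0.44, and RKI1 read -0.69 and -0.32. The list of side routes, most of it for sulphite export, sulphate esters and sulphonates, had 0 of 6 genes past 2-fold, with medians of 0.00 and 0.04. There BDS1 read 0.52 and 0.17, the sulphite exporter gene SSU1 read -0.32 and -0.21, and SOA1 read -0.17 in both. MET22, on that list but with none of those functions, read 0.39 and 0.07.

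**Figure D5:**
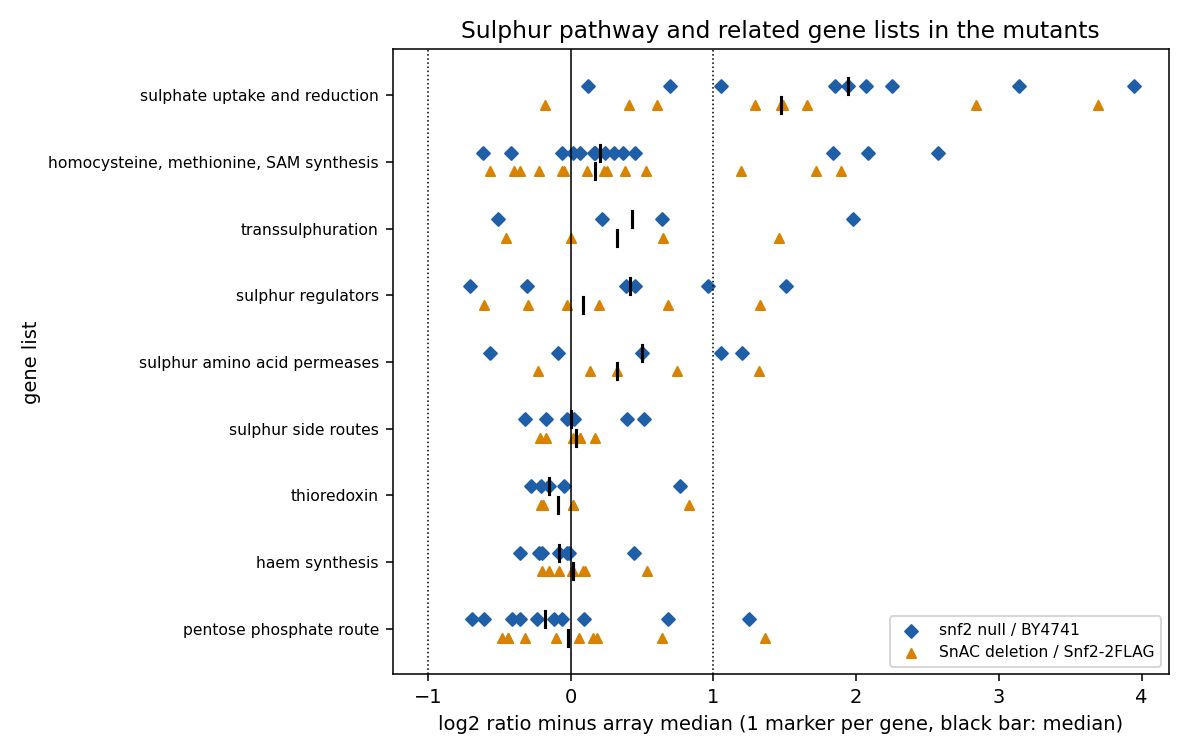
Log2 ratio minus the array median (horizontal axis) of each gene in the sulphate route and in 8 related lists (vertical axis), for the null (blue) and the SnAC deletion (orange), with a black bar at each median and dotted lines at 2-fold. The medians of the sulphate route, at 1.95 and 1.48, lie above 1, and those of the related lists lie between -0.18 and 0.50.

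Likeness of profile was measured as the Euclidean distance over the 4 centred values, among 4656 named genes measured on all arrays and outside the route. The genes nearest to the median profile of the 9 were TDA6 at a distance of 0.16, STR3 at 0.31, MET2 at 0.32, ICS3 at 0.43 and the cardiolipin deacylase gene CLD1 at 0.62. TDA6 was also the nearest gene to both sulphite reductase subunit genes, at 0.16 for MET5 and 0.26 for MET10, and it read 2.03 in the null against 1.42 in the SnAC deletion. MET2 was nearest to MET14, at 0.28, and ICS3 was nearest to MET1, at 0.29.

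The members at the ends of the range had other neighbours in profile. SER3, an enzyme gene of serine synthesis, was nearest to MET3 at 1.32, and MET6 was nearest to SUL2 at 1.14. These genes at the top thus had no close match among the genes compared, which leave out the other members. MET16 was nearest to ODC1, a mitochondrial dicarboxylate carrier gene, at 0.14, and MET8 to IMD3, an inosine monophosphate dehydrogenase gene, at 0.10. SUL1 was nearest to ILV2, of branched-chain amino acid synthesis, at 0.06, and near 0 many genes lie as close. Over 4 arrays, such likeness is a description only.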

How the data were processed

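The deposited table holds 1 log ratio per probe and sample, read here as log2. Each value sets channel 1, the strain in the sample's title, over channel 2, the matching wild type, per the labels, which name 2 scans of opposite dye orientation for each sample. How the authors combined them, the base of the logarithm, the normalization and any filter are not given in the sources used here. The number of arrays limits the precision.

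Gene names came from the platform annotation, updated through gene identifiers to the R64 gene table, which also gave gene order: 5578 of 6226 probes had 1 gene name, 648 had none, 0 had several and 5573 matched. The median over probes was subtracted from each array, and probes of the same gene were averaged, giving 6195 features. A feature was called at 2-fold, with no test. The fold call was tried on simulated data with known changes well past the threshold, so it had to recover most of them. That trial covered neither gene naming nor variation between cultures. Python 3.11.15, numpy 2.4.6, pandas 2.3.3 and matplotlib 3.10.9 were used.

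The members and lists were chosen with earlier results of these data known. Genes named are the 9 members, SNF2, up to 4 genes per list with the largest size in either mutant, the nearest profiles and the chromosomal neighbours. MET17, HOM3 and HOM2 were added after their values were seen. Alternatives were values as deposited, subtraction of the wild-type array, another centre, probes taken singly, other folds and another distance. Promoter sequences were not used here.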

Additional observations from a re-analysis of the deposited data

Results flagged for a closer look

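A few named genes had ratios of opposite sign in the mutants, with 1 array each, and the differences were not tested. Only the members and the genes named per list were screened for this, so SUL1, MET4 and HEM13 are not all such genes on the lists. Outside that screen, HOM3 read 0.37 in the null but -0.36 with SnAC deleted, and HOM2 read 0.30 but -0.22. Both are on the list of homocysteine, methionine and S-adenosylmethionine synthesis. SUL1 read 0.12 in the null but -0.18 with SnAC deleted, a difference of 0.31. The activator gene MET4 read 0.45 but -0.03, a difference of 0.48. HEM13, a coproporphyrinogen oxidase gene, read -0.35 but 0.01, a difference of -0.36. As deposited HEM13 read -0.350 in the null and -0.385 with SnAC deleted, so its opposite sign rests on subtraction of the array median. Each value with SnAC deleted lay inside the central 95% of the Snf2-2FLAG array. In the null, SUL1 lay inside the central 95% of the BY4741 array, from -0.31 to 0.30, while MET4 and HEM13 lay outside it. The null array was wider over all features, and MET4 and HEM13 lay inside its own central 95%, from -0.65 to 0.74.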

How the results depend on the processing

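No paired analysis was possible because each group holds 1 array. The count of 7 members at least 2-fold higher in the null was the same as deposited, after subtraction of the wild-type array, with the other centre and with probes taken singly, and it was 8 at 1.5-fold and 6 at 3-fold. In the SnAC deletion the count of 6 was 5 as deposited, where MET5 read 0.90, and it was 7 at 1.5-fold and 3 at 3-fold. The median of the members there was 1.08 as deposited, against 1.48, because that array's median of -0.39 is then left in. As deposited, SUL1 read -0.57 and MET16 0.02 in the SnAC deletion, and 0.340% of all features were 2-fold higher. Of the other sulphur and related genes, 3 were 2-fold higher and 1 lower (CBF1) in the SnAC deletion as deposited. At 1.5-fold, 12 were higher in each mutant, against 4.28% (null) and 3.12% (SnAC deletion) of all features, and 4 and 1 were lower, against 3.27% and 2.56%. Of the single-gene ratios and differences between mutants, 18 moved by more than the SD of the comparison's reference (the wild-type array, or all features) as deposited, and 5 did after subtraction of the wild-type array. No ratio of a called member changed sign under the alternatives run, whereas the differences between mutants of SUL2 and MET14 turned to -0.07 and -0.01 after that subtraction. With the largest absolute difference in place of the Euclidean distance, 4 of the 5 genes nearest to the median profile were shared. The promoter motif counts and their alternatives were not run. No signal over background is given, so dim probes could not be told from bright ones.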
